A study of Mus musculus with 7 samples.

Results

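The genes described here encode the enzymes that remove methyl groups from histone lysines and a set of enzymes that add them at sites other than the substrate of DOT1L, together with Polycomb subunits. There are 38 genes, 15 demethylases (those named Kdm or Phf) and 23 methyltransferases, Polycomb genes and one reader of methylated lysine, Psip1. Each was found in the table of H3K79me2 read counts by overlap with its RefSeq gene span, and the row with the highest mean count stands for the gene. All 38 were found, among 9514 coding genes with a row of 21887 on the chromosomes of the table. A row is a genomic region with 1 read count per library. The rule goes by gene name and uses no count.

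Lysine methylation of histones is written by enzymes with a SET domain and erased by 2 families of demethylase, the flavin-dependent LSD enzymes and the iron-dependent JmjC enzymes. H3K79 methylation stands apart, since DOT1L, its writer, has no SET domain. The mark covers the first part of transcribed genes, so a region over a demethylase gene concerns the chromatin of that gene and does not measure the enzyme. In macrophages the H3K27 demethylase encoded by Kdm6b is known for its induction by inflammatory stimuli.

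The cells were macrophages grown from the bone marrow of C57BL/6 mice for 7 to 8 days with conditioned medium as the source of M-CSF. They received either 1 µM SGC0946, an inhibitor of DOT1L, or its solvent DMSO during differentiation, with 3 libraries per group that the design text names biological replicates. The growth protocol speaks of both wild-type and knockout animals and assigns neither to a library, and no stimulus is named. A single input sample is listed and was not analysed here, and no input was subtracted from any density given here. In bulk chromatin, fewer marked cells and less mark per cell cannot be told apart. Totals ran from 16.7 to 19.5 M counts per library with DMSO and from 2.95 to 3.13 M with SGC0946. Of the macrophage markers 10 of 10 had a region, against 0 of 4 B-cell, 0 of 6 stromal and endothelial, 1 of 4 T-cell (Lck), 1 of 4 neutrophil (Mpo) and 1 of 3 erythroid markers (Klf1), and the DMSO means of Lck, Mpo and Klf1 were 1.33, 3.67 and 4 counts (5.67, 9 and 6 with SGC0946).

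In 2 demethylase genes with several listed transcript starts, Kdm4c and Kdm2b, the first H3K79me2 region of the gene lay at an inner start. Kdm4c, an H3K9 and H3K36 demethylase gene on the plus strand, has a first listed start at its 5′ end and a later one 9382 bp downstream. Its first region, also the one with the most counts, began 9359 bp into the gene span and 23 bp before the later start. The 300-base RefSeq windows (GRCm38.p6, 250 bases before to 50 after the start, 5′ to 3′) are shown for both starts, with each CG dinucleotide in capitals. The first window holds 0 CG dinucleotides and the later one 28. Kdm2b, on the minus strand, encodes an H3K36 demethylase that also binds unmethylated CpG islands, and it has 2 starts near its 5′ end and 2 further in, one of them 88920 bp from it. Its 2 regions both lay downstream of the inner starts, one beginning 196 bp and the other, with more counts, 5555 bp after the start whose window is shown. None lay over the outer starts. The windows of the outer Kdm2b starts hold 18 and 28 CG dinucleotides, and those of the inner starts 49 and 47. An uncovered Kdm2b start thus has as many as the later Kdm4c start.
Kdm4c first start, chr4:74242247-74242546, plus strand: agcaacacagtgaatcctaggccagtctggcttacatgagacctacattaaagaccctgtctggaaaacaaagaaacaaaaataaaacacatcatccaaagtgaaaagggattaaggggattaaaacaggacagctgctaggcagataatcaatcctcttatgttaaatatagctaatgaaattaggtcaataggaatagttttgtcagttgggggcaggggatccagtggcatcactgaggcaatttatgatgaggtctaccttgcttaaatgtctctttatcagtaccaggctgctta
Kdm4c later start, chr4:74251629-74251928, plus strand: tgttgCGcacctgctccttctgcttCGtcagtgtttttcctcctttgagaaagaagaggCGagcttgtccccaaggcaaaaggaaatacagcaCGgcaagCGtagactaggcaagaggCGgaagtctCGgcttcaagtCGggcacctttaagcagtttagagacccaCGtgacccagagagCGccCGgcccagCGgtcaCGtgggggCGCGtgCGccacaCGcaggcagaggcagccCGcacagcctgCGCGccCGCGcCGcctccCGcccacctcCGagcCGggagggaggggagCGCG
Kdm2b inner start, chr5:122900301-122900600, minus strand: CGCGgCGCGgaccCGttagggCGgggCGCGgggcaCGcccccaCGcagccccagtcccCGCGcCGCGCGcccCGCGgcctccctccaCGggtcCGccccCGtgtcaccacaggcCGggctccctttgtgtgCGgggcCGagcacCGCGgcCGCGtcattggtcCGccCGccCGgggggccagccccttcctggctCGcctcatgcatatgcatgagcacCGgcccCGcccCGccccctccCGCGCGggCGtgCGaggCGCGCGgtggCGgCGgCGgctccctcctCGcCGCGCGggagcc

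**Figure D1:**
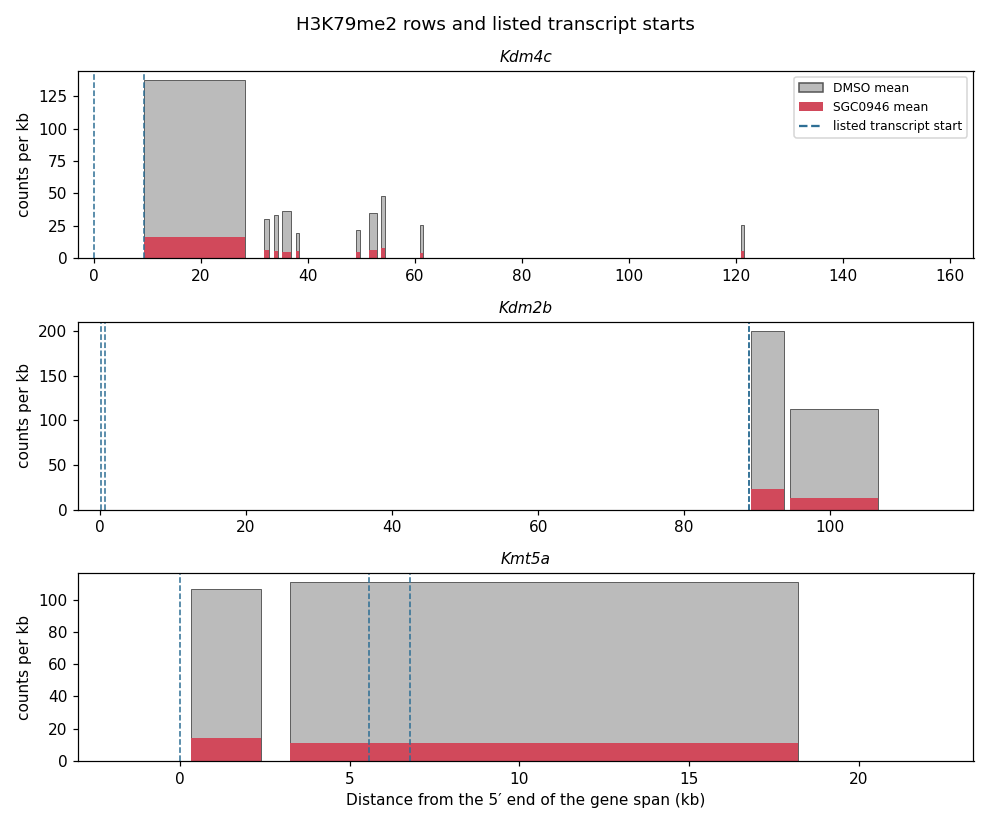
H3K79me2 counts per kb (y axis, mean of 3 libraries per group) in each region of Kdm4c, Kdm2b and Kmt5a against the distance from the 5′ end of the gene span in kb (x axis); grey bars are DMSO, red bars SGC0946 and dashed lines the listed transcript starts. In Kdm4c and Kdm2b the region nearest the 5′ end begins at an inner start (23 bp before and 196 bp after it) and the others further downstream, and in Kmt5a the nearer region begins 329 bp after the first start.

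Start windows were listed for 27 of the 38 genes, 39 windows in all. The 5′ end of the gene span lay inside the region for 10 of the 27, and for 12 more the region began within 1 kb downstream of it. The other 5 were Kdm2b, Kdm4c, Kmt5a (3258 bp), Kmt5b (1775 bp) and Kmt5c (1657 bp). The windows held a median of 28 CG dinucleotides, against 21 over the windows of all coding genes with a region and 7 over the 32851 windows of the table. At least 1 CG was present in 37 of the 39, in 99.4% of the windows of coding genes with a region and in 94.6% of all windows. The motif TATAAA, searched on both strands with no other motif, was found in 1 of the 39 (a Jarid2 window), in 6.74% of the windows of coding genes with a region and in 13.6% of all windows.

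H3K79me2 reads fell at every one of these genes. On unscaled counts all 38 were called lower with SGC0946 (edgeR quasi-likelihood test, adjusted p under 0.05), where 99.7% of all tested regions and 99.8% of the rows that stand for coding genes were called lower too. None of the 38 was called higher, beside 0.0201% of all regions and 0.0245% of those rows. In each of the 38 genes the highest SGC0946 count was below the lowest DMSO count, as it was in 99.3% of all regions and 99.7% of the rows of coding genes. The genes kept between 9.86% (Kmt5a) and 28.6% (Kmt5c) of their DMSO counts, with a median of 14.2%, beside a median of 14.0% over the 8157 tested rows of coding genes and 16.1% over all 23367 tested regions. The labels give 1 target sequencing depth for all libraries and name no spike-in, so the part of yield and depth in the unscaled loss was not tested. DMSO means ran from 23.3 counts at Kmt5c to 12022 at Setd5, and regions from 547 bp (Kmt5c) to 85183 bp (Jarid2).

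**Figure D2:**
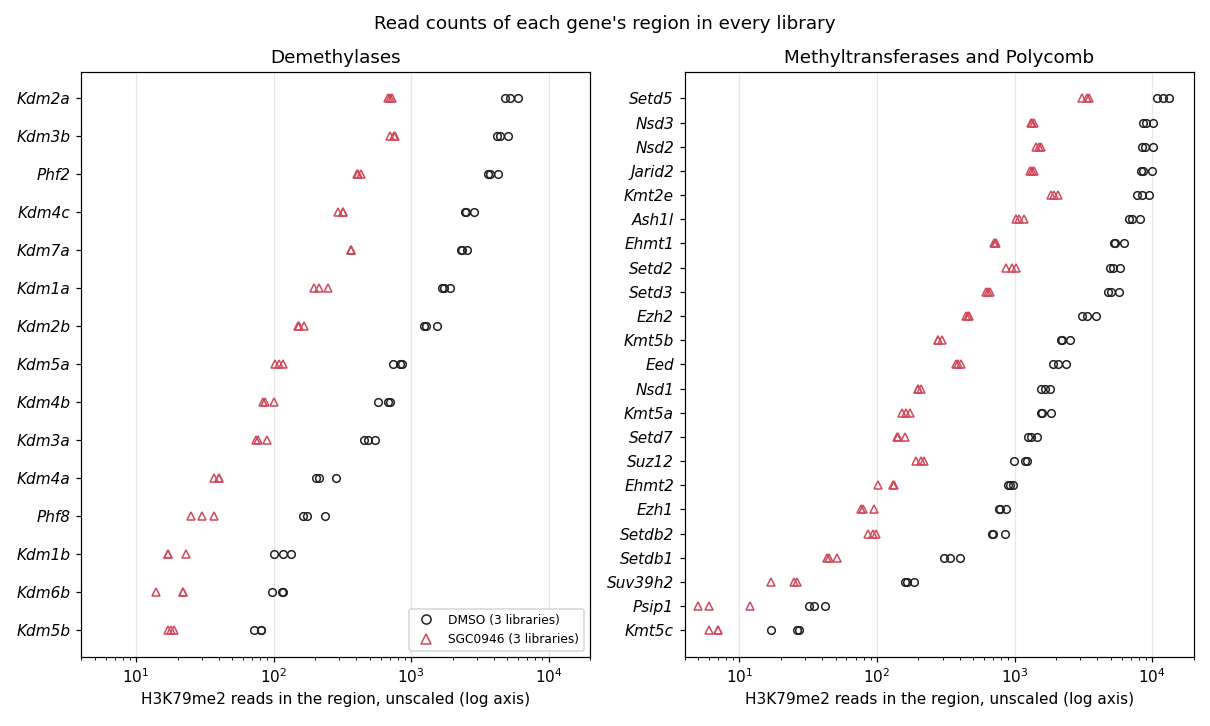
Unscaled H3K79me2 reads (x axis, log scale) in the region of each of the 15 demethylase genes (left) and the 23 methyltransferase and Polycomb genes (right); circles are the 3 DMSO libraries and triangles the 3 SGC0946 libraries. In all 38 genes the 2 groups are apart, and DMSO means span 23.3 to 12022 counts.

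Scaled to the library totals, lower calls outnumbered higher calls among the genes, as they did among the rows of coding genes. A gene that falls in share has lost more than the library as a whole. A log2 change in share is the change of a region's part of all counts in its library. Of the 38 genes, 22 fell in share, 2 rose and 14 did not pass the test. Lower calls thus made up 57.9% of the genes and higher calls 5.26%, beside 49.0% and 9.68% of the rows of coding genes and 23.3% and 6.16% of all tested regions. With TMM factors, which move the median of the rows of coding genes from -0.28 to -0.18, the split was 15 lower and 3 higher, and over all regions it went from 5439 lower and 1440 higher to 4009 and 1976. The shares did not overlap between groups in 23 genes that were lower and 5 that were higher with SGC0946, as was so for 55.6% and 11.6% of the rows of coding genes. Together the 38 regions held 0.623%, 0.644% and 0.638% of the DMSO libraries and 0.605%, 0.596% and 0.621% of the SGC0946 libraries.

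**Figure D3:**
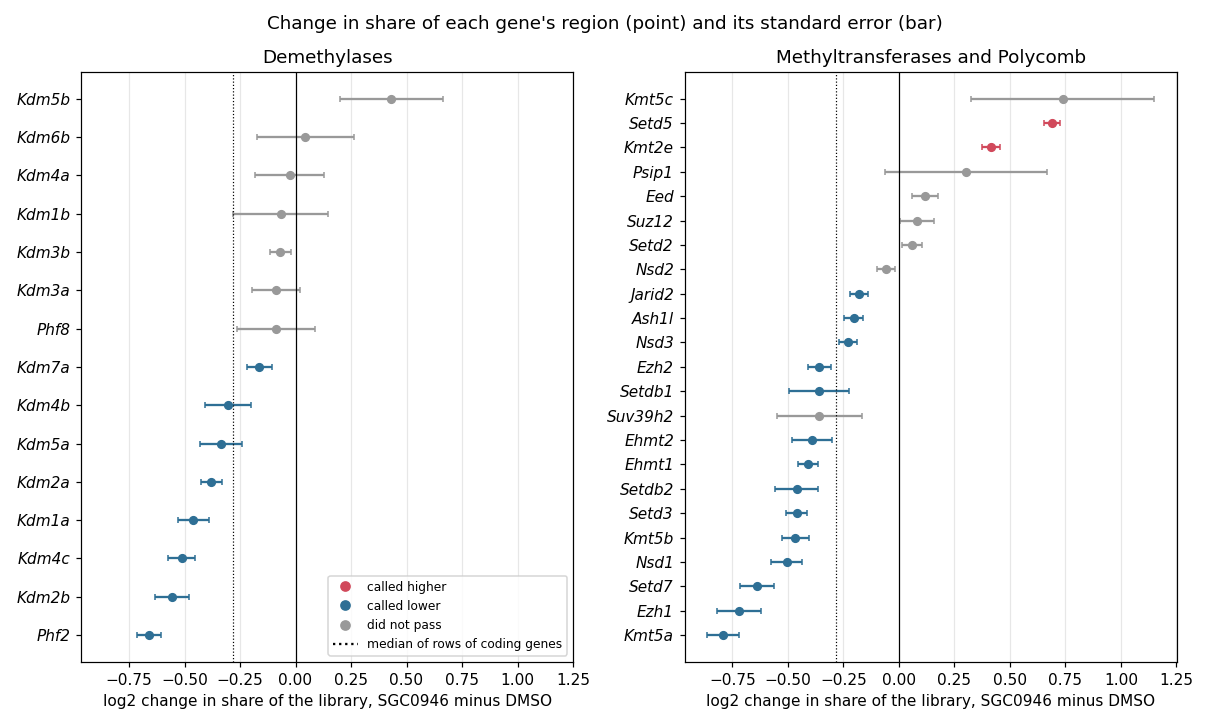
Log2 change in share of the library, SGC0946 minus DMSO (x axis), for the region of each gene, with the standard error as a bar; red points were called higher, blue lower and grey did not pass. The dotted line is the median of the tested rows of coding genes (-0.28), and Setd5 and Kmt2e are the called points to the right of 0.

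Setd5 and Kmt2e were the 2 genes that rose in share. They encode related SET-domain proteins, mammalian counterparts of Drosophila UpSET, whose activity as methyltransferases is debated. Setd5 (chromosome 6, 113077448 to 113113059, beginning 186 bp inside the gene) had 10866, 11944 and 13257 counts with DMSO and 3467, 3112 and 3349 with SGC0946, the highest counts of the 38 in both groups. It kept 27.5 ± 1.5% (SD of the 3 SGC0946 libraries against the DMSO mean). In share it gained 0.69 ± 0.04 on the log2 scale (SE, edgeR adjusted p = 2.7e-25) although its unscaled counts fell. Kmt2e, also called MLL5 (chromosome 5, 23434197 to 23468535), had 7777, 8387 and 9511 counts with DMSO and 2067, 1844 and 1932 with SGC0946. What remained was 22.8 ± 1.31%, a gain in share of 0.42 ± 0.04 on the log2 scale (adjusted p = 3.4e-14). In neither gene did the shares of the groups overlap. Among the 7034 rows of coding genes with a mean of at least 50 counts, 97.0% kept less than Setd5 and 94.4% less than Kmt2e. Setd3, an enzyme best known for methylating a histidine of actin, had a region 25847 bp long that also covers part of Ccnk. It went the other way, kept 12.4% and fell in share by log2 -0.46 (adjusted p = 3.8e-13).

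Among the demethylases of H3K4, Kdm1a and Kdm5a fell in share and Kdm1b and Kdm5b did not pass. Kdm1a, which encodes LSD1 (chromosome 4, 136592137 to 136602897), had 1687, 1718 and 1916 counts with DMSO and 198, 248 and 214 with SGC0946. It kept 12.4 ± 1.44%, a log2 share change of -0.46 ± 0.07 (adjusted p = 8.6e-08). Its paralogue Kdm1b, the LSD2 gene (chromosome 13, 47043918 to 47045947), had 116, 101 and 133 counts against 23, 17 and 17, kept 16.3 ± 2.97%, and its shares overlapped between the groups (log2 -0.07 ± 0.21, adjusted p = 0.869). Kdm5a kept 13.5% (log2 share -0.34, adjusted p = 0.00283), in a region that also covers part of Ccdc77. Its call was lost with TMM factors (adjusted p = 0.0597), DESeq2 size factors (0.0815) and the DESeq2 Wald test (0.270). Kdm5b had only 72 to 81 counts with DMSO and 17 to 19 with SGC0946, in a region that also overlaps Mgat4e. It kept 23.1%, with a log2 share of 0.43 ± 0.23 (adjusted p = 0.179).

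The H3K36 demethylases Kdm2a and Kdm2b fell in share. Kdm2b (chromosome 5, 122882758 to 122894795) had 1283, 1232 and 1546 counts with DMSO and 151, 154 and 166 with SGC0946, kept 11.6 ± 0.586%, and changed by log2 -0.56 ± 0.08 in share (adjusted p = 1.1e-08). The second Kdm2b region, next to the inner start, had almost the same value, with 11.5% kept (log2 share -0.57, adjusted p = 3.7e-07). Kdm2a kept 13.1% (log2 share -0.38, adjusted p = 2.6e-10) in a region of 34039 bp that also overlaps the gene model 9430078G10Rik.

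The Kdm4 genes, whose products act on H3K9 and H3K36, and the Kdm3 genes, whose products act on H3K9, were split. Kdm4c (chromosome 4, 74251856 to 74270789) had 2503, 2462 and 2860 counts with DMSO and 294, 321 and 321 with SGC0946. It kept 12.0 ± 0.598% and fell by log2 -0.51 ± 0.06 in share (adjusted p = 3.9e-11), with no overlap between the groups. Kdm4a (chromosome 4, 118176747 to 118179697) had 214, 203 and 282 counts against 40, 40 and 37, kept 16.7 ± 0.743%, and its shares overlapped (log2 -0.03 ± 0.15, adjusted p = 0.936). Kdm4b kept 13.8% (log2 share -0.30, adjusted p = 0.0191), a call that was lost without DMSO replicate 1 (adjusted p = 0.0619), SGC0946 replicate 1 (0.132) or SGC0946 replicate 3 (0.0869), and with TMM factors (0.153), DESeq2 size factors (0.181) or the DESeq2 Wald test (0.411). Kdm3a and Kdm3b kept 16.1% and 16.3% and did not pass (adjusted p = 0.632 and 0.310). Kdm3b was densely covered, at 258 counts per kb with DMSO.

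Phf2, Kdm7a and Phf8 encode the PHF-JmjC branch, whose plant homeodomain binds methylated H3K4. Phf2 (chromosome 13, 48838770 to 48871480) had 3713, 3597 and 4256 counts with DMSO and 406, 433 and 410 with SGC0946. It kept 10.8 ± 0.378%, the least of the demethylases, and fell by log2 -0.66 ± 0.05 in share (adjusted p = 3.4e-17). Kdm7a kept 15.3% (log2 share -0.16, adjusted p = 0.0205), a call lost without SGC0946 replicate 1 (0.125). It was also lost with TMM factors (log2 share -0.06, adjusted p = 0.613), DESeq2 size factors (-0.05, 0.714) and the DESeq2 Wald test (-0.05, 0.798). The X-linked Phf8 kept 16.0% on 164 to 236 DMSO counts and did not pass (adjusted p = 0.781).

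Kdm6b had a single short region in these cells. It measured 2078 bp (chromosome 11, 69406606 to 69408683) and had 117, 97 and 115 counts with DMSO and 22, 14 and 22 with SGC0946. It kept 17.6 ± 4.21%, and its shares overlapped between the groups (log2 0.04 ± 0.22, adjusted p = 0.922). At 52.8 counts per kb with DMSO, Kdm6b lay below the median of 109 counts per kb of the rows of coding genes.

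The writers of H3K36 methylation carried some of the longest regions. Setd2, which encodes the enzyme for H3K36 trimethylation that travels with RNA polymerase II (chromosome 9, 110532363 to 110552964), had 4968, 5163 and 5861 counts with DMSO and 1022, 863 and 963 with SGC0946. It kept 17.8 ± 1.51%, and its shares overlapped between the groups (log2 0.06 ± 0.05, adjusted p = 0.371). Of the 3 Nsd genes, which encode enzymes for H3K36 dimethylation, Nsd1 kept 12.0% (log2 share -0.50, adjusted p = 7.2e-09) and Nsd3 14.6% (log2 share -0.23, adjusted p = 2.1e-06). Nsd2 kept 16.4% and did not pass (adjusted p = 0.308), and its region also overlaps the gene model Gm52782. Ash1l, a further H3K36 writer, kept 14.8% (log2 share -0.20, adjusted p = 6.5e-05) in a region that reaches into Dap3. The calls of Nsd3 and Ash1l were lost with TMM factors (adjusted p = 0.204 and 0.345), DESeq2 size factors (0.385 and 0.520) and the DESeq2 Wald test (0.304 and 0.599). Psip1, whose product LEDGF reads H3K36 methylation, had 32 to 42 counts with DMSO and 5 to 12 with SGC0946 and did not pass (adjusted p = 0.619).

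The 5 writers of H3K9 methylation among the 38 genes lay close together, between 12.4% and 13.3% kept. Outside that range, Suv39h1, counted below with the other SET domain genes, kept 16.6% (log2 share -0.04, edgeR adjusted p = 0.852). Setdb2 kept 12.4%, Ehmt1 (GLP) 12.9%, Ehmt2 (G9a) 13.0% and Setdb1 13.3%, and these 4 fell in share by log2 -0.46, -0.41, -0.39 and -0.36. Setdb1 passed narrowly (adjusted p = 0.0371), and its call was lost without DMSO replicate 3 (0.0648), SGC0946 replicate 1 (0.195) or SGC0946 replicate 3 (0.139), and with TMM factors (0.164), DESeq2 size factors (0.183) or the DESeq2 Wald test (0.414). The call of Ehmt2 was lost with the Wald test alone (0.198). Suv39h2 had the same log2 share change as Setdb1, -0.36, on 161 to 185 DMSO counts and did not pass (adjusted p = 0.172). The regions of Setdb2 (Cab39l and Gm45935) and Suv39h2 (Dclre1c) also cover neighbouring coding genes.

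The H4K20 writers held the gene that kept the least. Kmt5a, which encodes the H4K20 monomethyltransferase of the cell cycle (chromosome 5, 124443188 to 124458131), had 1587, 1551 and 1830 counts with DMSO and 174, 153 and 163 with SGC0946. It kept 9.86 ± 0.634% and fell by log2 -0.79 ± 0.07 in share (adjusted p = 8.6e-15), with no overlap between the groups. Only 0.881% of the 7034 rows of coding genes with a mean of at least 50 counts kept less. Kmt5b, for H4K20 di- and trimethylation, kept 12.4% (log2 share -0.47, adjusted p = 1.4e-09). Its relative Kmt5c had a region of 547 bp with 27, 17 and 26 counts against 7, 6 and 7, and its value of 28.6% did not pass in share (adjusted p = 0.199). Setd7, an H3K4 monomethyltransferase that also modifies other proteins (chromosome 3, 51550104 to 51560741), had 1258, 1314 and 1457 counts with DMSO and 140, 161 and 141 with SGC0946. It kept 10.97 ± 0.882% and fell by log2 -0.64 ± 0.08 in share (adjusted p = 2.4e-10).

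Polycomb repressive complex 2 methylates H3K27, and its genes Ezh1, Ezh2, Eed, Suz12 and Jarid2 kept between 10.4% and 18.5%. Its 2 alternative catalytic subunits fell in share. Ezh1 (chromosome 11, 101218552 to 101226586) had 775, 779 and 864 counts with DMSO and 77, 95 and 79 with SGC0946, kept 10.4 ± 1.22%, and changed by log2 -0.72 ± 0.10 (adjusted p = 9.6e-09). Ezh2 (chromosome 6, 47576882 to 47594966) had 3083, 3341 and 3887 counts against 467, 460 and 445, kept 13.3 ± 0.327%, and changed by log2 -0.36 ± 0.05 (adjusted p = 4.7e-08). Eed and Suz12, core subunits that both catalytic subunits need, kept more. Rbbp4 and Rbbp7, counted below with the other Polycomb genes, went different ways. Rbbp4 kept 11.6% (log2 share -0.55, edgeR adjusted p = 2.0e-12), and Rbbp7 kept 19.1% and did not pass (log2 share 0.16, adjusted p = 0.082). Eed, the H3K27me3-binding subunit (chromosome 7, 89969894 to 89980575), had 1916, 2086 and 2370 counts with DMSO and 390, 377 and 411 with SGC0946, and kept 18.5 ± 0.808%. The SGC0946 shares of Eed were all above the DMSO shares, but it did not pass (log2 0.12 ± 0.06, adjusted p = 0.137), and it passed as higher with TMM factors (log2 0.22, adjusted p = 0.0117) or DESeq2 size factors (log2 0.23, adjusted p = 0.0262). Suz12 kept 18.1 ± 1.2% and did not pass (log2 0.08, adjusted p = 0.489). Jarid2, an accessory subunit that helps recruit the complex, had the longest region of the set, 85183 bp (chromosome 13, 44731418 to 44816600), kept 15.1%, and fell in share by log2 -0.18 (adjusted p = 0.000209). That call was lost with TMM factors (log2 share -0.08, adjusted p = 0.491), DESeq2 size factors (-0.07, 0.647) and the DESeq2 Wald test (-0.07, 0.608). The difference between the catalytic subunits and Eed and Suz12 was not tested.

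The start windows of Ezh1 and Suz12 both lie partly inside their regions and are shown for a catalytic and a core subunit, with CG dinucleotides in capitals. Ezh1, which kept 10.4%, holds 23, and Suz12, which kept 18.1%, holds 41. The window of Eed, which kept 18.5%, lies outside its region and holds 17. Phf2, which kept 10.8%, holds 63 in its window, so the CG count did not order these genes by what they kept.
Ezh1, chr11:101226414-101226713, minus strand: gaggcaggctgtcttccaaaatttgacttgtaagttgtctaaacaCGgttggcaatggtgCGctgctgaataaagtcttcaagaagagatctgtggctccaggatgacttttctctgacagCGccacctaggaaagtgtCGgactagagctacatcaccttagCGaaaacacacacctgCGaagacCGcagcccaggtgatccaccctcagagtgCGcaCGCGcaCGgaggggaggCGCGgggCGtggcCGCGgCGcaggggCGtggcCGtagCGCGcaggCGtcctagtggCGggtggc
Suz12, chr11:79992856-79993155, plus strand: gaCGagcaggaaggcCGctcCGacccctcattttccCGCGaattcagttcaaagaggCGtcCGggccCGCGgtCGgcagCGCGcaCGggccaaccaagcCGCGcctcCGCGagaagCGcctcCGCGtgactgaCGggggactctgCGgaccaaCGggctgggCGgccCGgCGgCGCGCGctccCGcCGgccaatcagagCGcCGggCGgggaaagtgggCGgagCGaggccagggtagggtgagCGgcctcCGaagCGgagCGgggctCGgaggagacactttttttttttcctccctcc

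On library totals, lower was the most frequent call in both classes. Of the 15 demethylase genes 8 fell, none rose and 7 did not pass, and of the 23 others 14 fell, 2 rose and 7 did not pass. The lower calls made up 53.3% and 60.9%, beside 49.0% of the rows of coding genes. Of the 8 demethylases that fell, Kdm4b, Kdm5a and Kdm7a lost the call with TMM factors, DESeq2 size factors and the DESeq2 Wald test. Of the 14 others that fell, Ash1l, Jarid2, Nsd3 and Setdb1 lost it with each of these. The median log2 share change was -0.16 for demethylases and -0.36 for the others, and -0.28 over the rows of coding genes. The distance between the 2 medians was 0.19 and shrank to 0.01 without SGC0946 replicate 1, 0.07 when all regions of a gene were summed and 0.11 without SGC0946 replicate 2. By library, the median demethylase stood at log2 -0.20, -0.21 and -0.30 from the DMSO mean in the 3 SGC0946 libraries, and the median of the others at -0.35, -0.23 and -0.21, so that the ranges overlapped. No test of the difference between the classes was made.

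The demethylase regions also held fewer reads, with a median DMSO mean of 805 counts against 2124. Of the 10 genes of both classes with a DMSO mean under 500 counts, 1 fell in share (Setdb1), none rose and 9 did not pass, beside 22.4% lower and 3.65% higher among the rows of coding genes in that class. Of the 28 with at least 500, 21 fell, 2 rose and 5 (Kdm3b, Nsd2, Setd2, Eed and Suz12) did not pass. The lower calls were 75% and the higher calls 7.14%, beside 69.1% and 14.2% of the rows of coding genes in that class. Among those 28 the medians were -0.38 for 9 demethylases and -0.36 for 19 others. The limit of 500 counts was chosen after the values were seen.

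By H3K79me2 density, the median percent kept was lowest in the middle class of 3. With DMSO, 11 of the 38 had under 80 counts per kb and kept a median of 16.3%, 16 had 80 to 180 and kept 12.4%, and 11 had more and kept 16.4%. The sparse class holds 3 genes with a mean under 50 counts (Kdm5b, Psip1 and Kmt5c), and the median of its other 8 was 14.9%. Over the rows of coding genes with a mean of at least 50 counts the medians were 14.5%, 12.7% and 16.1%. Demethylase genes took 6 places of the 11 in the sparsest class and 1 (Kdm3b) in the densest. Setd5 was the densest at 338 counts per kb, followed by Setd2 at 259 and Kdm3b at 258, which kept much less. In the sparsest class the SGC0946 density ran from 7.74 counts per kb at Phf8 to 13.2 at Kdm4a. It was 7.77 at Psip1, 9.30 at Kdm6b, 12.2 at Kmt5c and 12.9 at Kdm5b. Over all tested regions the median was 8.67 and the 75th percentile 12.5. How much of these low counts is background was not tested. The limits of 80 and 180 were chosen after the values were seen. Across genes, which share the same 6 libraries, density and percent kept were close to uncorrelated over all 38 (Pearson r of log2 values -0.0806, Spearman rho -0.0108). Over the 35 with a mean of at least 50 counts r was 0.289 and rho 0.231, and without Setd5 they were 0.15 and 0.161. The 7034 rows of coding genes had r 0.29 and rho 0.147.

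**Figure D4:**
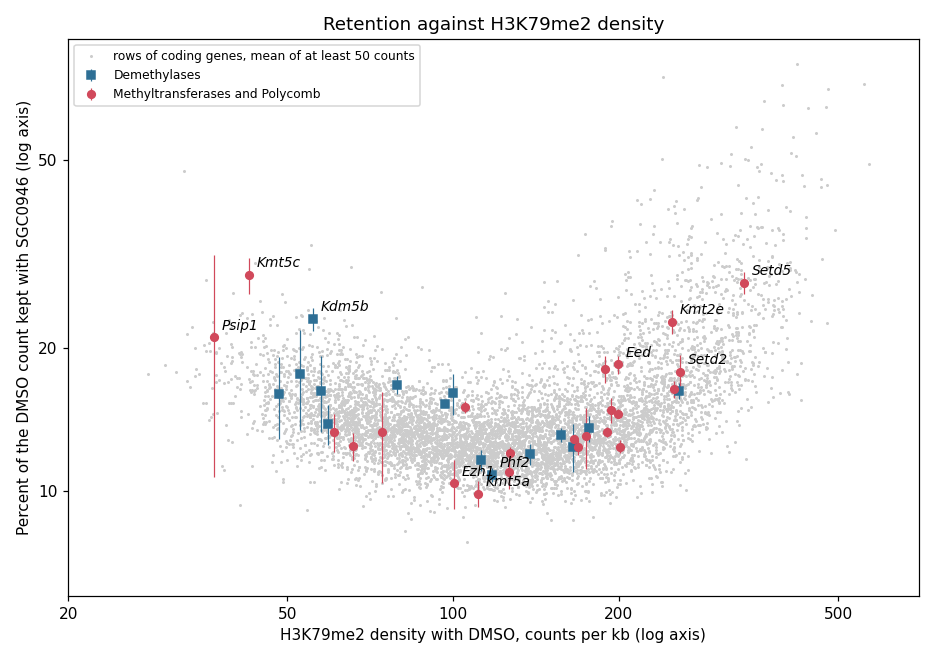
Percent of the DMSO count kept with SGC0946 (y axis, log scale) against H3K79me2 counts per kb with DMSO (x axis, log scale); squares are demethylase genes, circles the others, bars the SD over the 3 SGC0946 libraries and grey dots the 7034 rows of coding genes with a mean of at least 50 counts. The lowest genes lie near the middle of the density range (Kmt5a 9.86%, Ezh1 10.4%), and Setd5 (27.5%) lies at its dense end.

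Most of these genes were covered by more than 1 region. The 38 genes had 193 regions, and 31 of them had 155 besides the one that stands for the gene. Of the 106 of these that were tested, 6 fell in share, 1 rose and 99 did not pass, on a median of 21 DMSO counts. Of 14108 tested further regions over coding genes 9.68% were lower and 3.23% higher, and of all tested regions 23.3% and 6.16%. Restricted to a mean of at least 50 counts, 19 further regions in 11 genes kept 9.93% to 20.2%, and 6 fell and 13 did not pass, beside 35.1% lower and 1.53% higher among further regions over coding genes with that mean. Phf2 kept 9.93% in its second region (10.8% in the first) and Kmt5a 13.3% (9.86%). In Jarid2 a region following the main one kept 11.6% and those beyond it with at least 50 mean counts 14.9% to 20.2%, where DMSO densities of these regions lay between 113 and 34.1 counts per kb. The 1 rise was a region of 500 bp in Setd2 with 17, 9 and 13 counts with DMSO and 8, 7 and 2 with SGC0946 (adjusted p = 0.0429), named for its value.

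**Figure D5:**
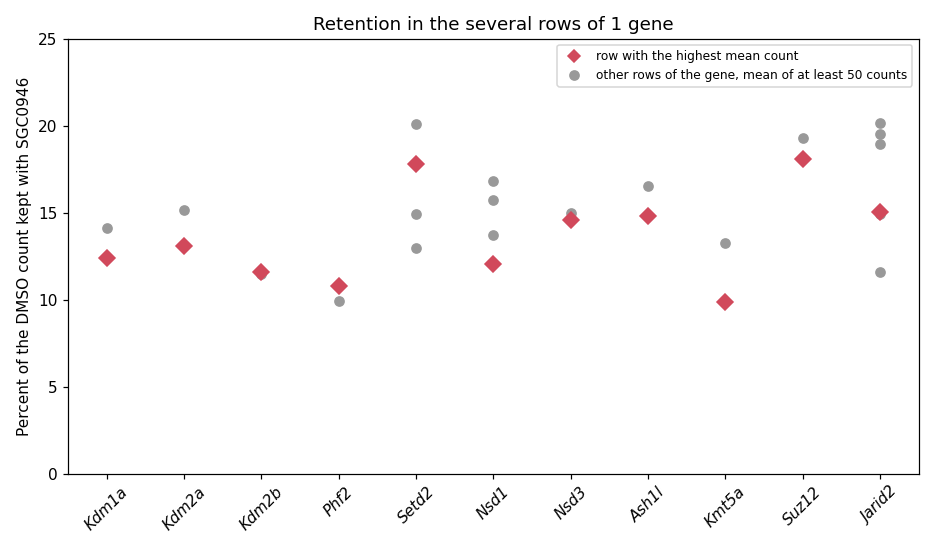
Percent of the DMSO count kept with SGC0946 (y axis) for the 11 genes with several regions of at least 50 mean counts (x axis); diamonds are the regions with the highest mean count and circles the other regions. All points lie between 9.86% and 20.2%.

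Further genes of these families, from lists drawn up by function, were split as well. Of 14 other JmjC genes 11 had a region, and of 10 tested 5 fell in share, 2 rose and 3 did not pass. Lower calls thus made up 50% and higher calls 20%, beside 49.0% and 9.68% of the rows of coding genes. Jmjd1c, the third Kdm3 relative, kept 20.5% (log2 share 0.26, adjusted p = 1.5e-08), and the H3K4 demethylase gene Kdm5c kept 19.8% (log2 share 0.21, adjusted p = 0.00881). Both rose in share, and the X-linked H3K27 demethylase gene Kdm6a kept 15.6% and fell by log2 -0.13 (adjusted p = 0.00836). Values of these further genes under other scaling are not given here. The change at Kdm6a is small beside the move of the median of the rows of coding genes from -0.28 to -0.18 with TMM factors. By percent kept the low end of this list held Kdm4d (10.997%) and Riox1 (13.2%, in a region shared with Heatr4). The Kdm4d region is shared with Cwc15 and covers only 0.166% of the Kdm4d span, so it says little about that gene. The high end held Jmjd4 (29.5% of 29.3 counts, adjusted p = 0.123) and Hr. Hr had 0.667 counts with DMSO and 4.67 with SGC0946 and was not tested.

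Of 27 other SET and PR domain genes 16 had a region, and 10 fell, 1 rose and 5 did not pass. That is 62.5% lower and 6.25% higher, beside 49.0% and 9.68% of the rows of coding genes. Smyd2 kept 10.4% and Kmt2a 10.6% at the low end. At the high end stood Suv39h1 with 16.6%, which did not pass, and Kmt2d, an H3K4 methyltransferase of enhancers, which kept 26.1% and rose by log2 0.61 in share (adjusted p = 4.7e-18). Of 27 other Polycomb genes 21 had a region, and of 19 tested 9 fell, 2 rose and 8 did not pass. Lower calls were 47.4% and higher calls 10.5%, near the shares of the rows of coding genes. Phc3 kept 11.1% and Yaf2 11.2%, and the 2 that rose, Cbx6 and Pcgf5, had only 20 and 16.3 counts with DMSO. Of the lower calls, Rnf2, which encodes the ubiquitin ligase of Polycomb complex 1, kept 11.3%.

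The last list held partners of LSD1 and of the H3K9 enzymes. Of 12 with a region, of 13 listed, 10 fell (83.3%), 1 rose (8.33%) and 1 did not pass. Lower and higher calls made up 49.0% and 9.68% of the rows of coding genes. Among such rows with a DMSO mean of at least 500 counts they made up 69.1% and 14.2%. The median DMSO mean of this list was 1364 counts. Rcor1, the scaffold that links LSD1 to chromatin, kept 11.9%, and Phf21a, its reader of unmethylated H3K4, 12.1%. The deacetylase genes of the same complex, Hdac1 and Hdac2, kept 12.5% and 12.8%, near the 12.4% of Kdm1a. At the high end Trim28 (shared with Gm31649) kept 15.9% and did not pass, and Cbx3 kept 29.4% and rose by log2 0.78 (adjusted p = 5.1e-24), in a region that also covers Hnrnpa2b1.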

How the data were processed

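Read counts in 29397 regions of 6 H3K79me2 ChIP-seq libraries were deposited by the authors as a single table of raw counts with no scaling visible. The build mm10 is named in the submitters' processing notes. The tools listed there are ChIPseeker 1.20.0, HOMER 4.11.1, HISAT2, R 3.6.3 and bedtools 2.27.0. Their roles, the counting, and the treatment of duplicate reads are not given in the sources used here, and each could change the counts. Starts were read as zero-based. Regions were matched to gene spans of GRCm38.p6 from RefSeq, the assembly that mm10 names, and 8 of the 38 regions overlapped a further coding gene. Promoter windows came from RefSeq on the same build.

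Counts were tested over the whole table in R 4.3.3 by the quasi-likelihood F test of edgeR 4.0.16 (2-sided, filterByExpr, Benjamini-Hochberg adjusted p under 0.05) on library totals and on equal library sizes. Of 29397 regions 23367 passed the filter on totals, all 38 regions of these genes included. Standard errors were derived from the fold change and F. Replicates differed by more than sampling noise (chi-square per degree of freedom 1.32 to 2.38), and p-values measure the spread between these libraries. The fit was tested on simulated counts with changes placed in 200 regions. It recovered 30% of 1.25-fold, 56% of 1.5-fold, 74% of 2-fold and 98% of 4-fold changes, so small changes placed across the table were often missed. The simulation gave all regions the same biological coefficient of variation, 3.57%. The median DMSO mean was 72 counts over all tested regions and 1663 over the regions of these genes, for which recovery was not measured. False calls were 8 among 24029 tested regions. Alternatives were TMM and DESeq2 1.42.0 size factors, the DESeq2 Wald test, other count filters, a replicate block, each library left out, summed rows and other row choices. Full values were given for the 3 genes of each class that kept most and least (mean of at least 50 counts), those that rose in share, and Kdm6b, Ezh2, Setd2 and Kdm1a. In the related lists the 2 highest and 2 lowest were named. Kdm5c, Kdm6a, Rnf2, Rbbp4, Rbbp7, Hdac1, Hdac2, Cbx6 and Pcgf5 were named after their values were seen. The members and lists were chosen with earlier results of these data known.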

Additional observations from a re-analysis of the deposited data

How the results depend on the processing

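On library totals, 14 of the 22 lower calls and both higher calls (Setd5 and Kmt2e) held under each alternative run that gave them a value. The other 8 lower calls (Ash1l, Ehmt2, Jarid2, Kdm4b, Kdm5a, Kdm7a, Nsd3 and Setdb1) were lost in 1 to 7 of them, mostly with other scaling. With TMM factors, DESeq2 size factors and the DESeq2 Wald test the medians were -0.060, -0.053 and -0.052 for demethylases and -0.25 in each for the others, a shift that other scaling makes by construction, and the Wald test called 14 genes lower. Summing all regions of a gene brought the median of the others to -0.23 and 4 genes to a higher call, with Kdm5b and Psip1 added. The region thereby added to Psip1, 500 bp long and shared with Snapc3, had 1 count in each DMSO library and 3, 13 and 2 with SGC0946. Leaving out 1 library moved the median of the others between -0.38 and -0.23 (the latter without SGC0946 replicate 1), that of demethylases between -0.22 and -0.15, and the higher calls over all regions between 918 (without DMSO replicate 3) and 2155 (without SGC0946 replicate 3). Over all regions, the Wald test called 2506 higher and 2831 lower. Without a count filter 2784 were higher, and 808 when the mean had to reach 50 counts, and 11055 regions were lower in unscaled counts at that mean, where fewer regions were tested. Apart from the changes that follow from scaling or from fewer regions, the cause was not tested. Restricting to regions over 1 coding gene, an alternative chosen after seeing the data, left 17 lower and 2 higher.

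The library titles carry the same replicate numbers in both groups. Same-numbered libraries of the 2 groups did not deviate together over 11055 regions (correlations 0.011, -0.11 and -0.015), and the numbers were not taken as pairing. Counting noise in the SGC0946 libraries also makes such correlations small, so the check cannot exclude pairing. With the replicate number as a block, 21 genes were lower and 2 higher, with Setdb1 lost (adjusted p = 0.0629). Depth limits the sparse genes: at Kmt5c and Psip1 the SGC0946 libraries held 5 to 12 reads.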
